A study of Mus musculus with 9 samples.

Results

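Cholesterol handling genes are described here across the cell classes and diets of mouse epididymal adipose tissue (epiAT), a visceral fat depot beside the testis. The 8 genes were chosen by symbol from the 32285 genes of the count matrices: the efflux genes Abca1, Abcg1 and Apoe, the esterifying enzyme Soat1, the lysosomal genes Lipa, Npc1 and Npc2, and the synthesis enzyme Sqle. Gene expression was measured by single-nucleus RNA sequencing (snRNA-seq), which counts the RNA molecules of each droplet by unique molecular identifiers (UMIs). The 9 libraries each held pooled nuclei of 5 male C57BL/6J mice, and each diet group was 1 library, so no group had a replicate.

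Control mice ate chow and were 18 weeks old in C, 26 in CC and 39 in CCC. According to the study's methods, C received the low-fat control diet, whereas CC and CCC had been moved to a different chow. Obesity was induced by a high-fat diet (HFD) that lasted 12 weeks in H (age 18 weeks) and 25 weeks in HH (age 31 weeks). For weight loss (WL), obese mice returned to chow for 8 weeks, which gave HC after 12 weeks of HFD (age 26 weeks) and HHC after 25 weeks of HFD (age 39 weeks). CCH mice had chow followed by a first HFD of 4 weeks, and HCH mice had 12 weeks of HFD, 8 weeks of chow and then 4 further weeks of HFD. Both of these groups were 30 weeks old.

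Cells take up cholesterol esters with lipoproteins or dead cells and cleave them in lysosomes with the acid lipase encoded by Lipa. NPC2 and NPC1 then pass the free cholesterol out of the lysosome. In the endoplasmic reticulum SOAT1 (also called ACAT1) turns surplus cholesterol back into esters for storage in droplets, which is how macrophages become foam cells. ABCA1 and ABCG1 export cholesterol to lipoproteins, apolipoprotein E (Apoe) is a lipoprotein component and acceptor, and squalene epoxidase (Sqle) is a rate-controlling enzyme of cholesterol synthesis. Transcription of Abca1 and Abcg1 responds to oxysterols through liver X receptors (LXR, encoded by Nr1h3 and Nr1h2) paired with retinoid X receptors such as Rxra, and adipose tissue is a large store of free cholesterol in the body.

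RefSeq promoter entries (build GRCm38.p6) matched 5 of the 8 genes, and Abcg1, Npc1 and Sqle had no entry that was used. The 250 bases before the start are shown, 5′ to 3′ on the gene's strand, for Soat1, Lipa and Npc2, which rose with obesity in macrophage-like nuclei (given below), and for Abca1, which did not pass that test. Capitals mark matches to any of 4 motifs searched on both strands: the DR4-type repeat of LXR sites (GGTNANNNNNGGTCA), the E-box core (CACGTG), a sterol regulatory element (TCACNCCAC) and the core of sites of the myeloid factor PU.1 (GAGGAAG). The Soat1 window is chr1:156474329-156474578, the Lipa window chr19:34527475-34527724, the Npc2 window chr12:84773113-84773362 and the Abca1 window chr4:53159896-53160145, all on the minus strand.
Soat1: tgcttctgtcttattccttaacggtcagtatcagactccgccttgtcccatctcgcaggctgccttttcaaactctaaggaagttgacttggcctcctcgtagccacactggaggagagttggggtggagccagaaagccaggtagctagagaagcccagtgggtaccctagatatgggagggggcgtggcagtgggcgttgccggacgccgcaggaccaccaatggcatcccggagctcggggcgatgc
Lipa: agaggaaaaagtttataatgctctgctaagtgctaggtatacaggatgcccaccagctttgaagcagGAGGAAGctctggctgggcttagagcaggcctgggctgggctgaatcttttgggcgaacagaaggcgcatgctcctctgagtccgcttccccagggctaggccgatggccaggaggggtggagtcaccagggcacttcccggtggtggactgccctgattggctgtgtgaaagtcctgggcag
Npc2: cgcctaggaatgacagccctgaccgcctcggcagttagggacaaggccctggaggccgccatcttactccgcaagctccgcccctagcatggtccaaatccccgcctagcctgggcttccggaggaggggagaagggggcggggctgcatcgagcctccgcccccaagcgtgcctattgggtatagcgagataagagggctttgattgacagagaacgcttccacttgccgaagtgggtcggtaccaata
Abca1: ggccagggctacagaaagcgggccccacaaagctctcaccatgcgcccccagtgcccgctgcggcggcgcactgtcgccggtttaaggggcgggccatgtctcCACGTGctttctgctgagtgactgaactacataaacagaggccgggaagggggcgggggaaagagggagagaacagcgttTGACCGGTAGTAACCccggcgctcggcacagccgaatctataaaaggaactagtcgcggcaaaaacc

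Counting the last base before the start as position -1, the Abca1 window held a DR4-type repeat that begins at -67 and an E-box core that begins at -147. The Lipa window held a PU.1 core that begins at -183. No match to the 4 motifs was found in the Soat1 and Npc2 windows or in the 3 entries of Apoe. Of all 32851 promoters of the same length, 0.177% held the DR4-type repeat, 6.02% the E-box core, 1.05% the sterol regulatory element and 10.6% the PU.1 core. The matches do not overlap one another and describe letters only.

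The shallowest library, CCC, held 22599619 UMIs and the deepest, HHC, 66615262, and 3985 nuclei (CC) to 12560 nuclei (HH) passed the filters, with medians of 2050 to 3211 UMIs per nucleus. Library pairs shared at most 55 barcodes. Nuclei were assigned to 13 classes by marker genes, none of which is a cholesterol gene of the list, and levels are given for the 10 classes with 20 nuclei in 6 libraries or more. Class names end in "-like" since they rest on markers alone. Macrophage-like nuclei numbered 1674, 432 and 439 in C, CC and CCC, 5695 and 5835 in H and HH, 1333 and 3721 in HC and HHC, 1822 in CCH and 3687 in HCH. Between 5.51% (H) and 21.5% (CCC) of assigned nuclei led the next class by less than 3-fold. Levels are a gene's UMIs scaled to 1000000 UMIs of the class in a library (CPM), and ratios of 2 libraries carry 95% intervals that cover counting error only. Tests took the 3 chow, the 2 obese (H and HH) and the 2 WL libraries (HC and HHC) as replicates of a diet state, although they differ in age and length of diet. HC and CC, and HHC and CCC, share an age and a library name prefix, and a fit of these 4 libraries with each such pair as a block was added after the data were seen (the paired fit). In the labels the library names begin with S075 for C, H, HH, CCH and HCH and with S019 for the others, and what this prefix marks is not stated. All obese libraries thus bear one prefix and all WL libraries the other, and libraries with one prefix are called a label set. In fits with the label set as a covariate, obese libraries are in effect compared with C alone and WL libraries with CC and CCC.

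In the median library, macrophage-like nuclei held 67.7% of the UMIs of Abcg1, 65.3% of Soat1, 64.6% of Lipa and 45.1% of Npc1. For Apoe the median share was 43.5%, for Abca1 39.6%, for Npc2 37.0% and for Sqle 29.1%. The shares varied between libraries: for Lipa, macrophage-like nuclei gave 18.0% of the UMIs in CC and 84.6% in H. In the sum of all kept nuclei, Lipa stood at 26.4, 28.8 and 47.4 CPM in the chow libraries and at 594 CPM in H. Such sums mix the number of macrophage nuclei with the level per nucleus, so the classes are taken one by one.

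In macrophage-like nuclei 6 of the 8 genes rose in obese against chow libraries: Lipa, Apoe, Soat1, Abcg1, Npc2 and Npc1. No member fell, while 36.2% of all 14691 genes tested changed in either direction (edgeR's quasi-likelihood test, Benjamini-Hochberg adjusted p under 0.05). After WL, 4 of the 8 (Lipa, Abcg1, Soat1 and Npc2) were higher than in chow libraries, where 7.49% of genes changed. The median log2 fold change of the members was 1.67 in obesity and 1.35 after WL, against 0.02 and -0.01 over all genes tested. Both comparisons use the same chow libraries, and the difference between obese and WL libraries was not tested. As a measure of myeloid RNA at large, 8 myeloid genes outside the marker lists (Lyz2, Tyrobp, Fcer1g, Ctss, Laptm5, C1qa, C1qb and C1qc) were fitted too. Of these, 7 of 8 rose in obesity with a median of 1.67 and 1 of 8 (Ctss) after WL with a median of 0.64; their part in the results was not tested.

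**Figure D1:**
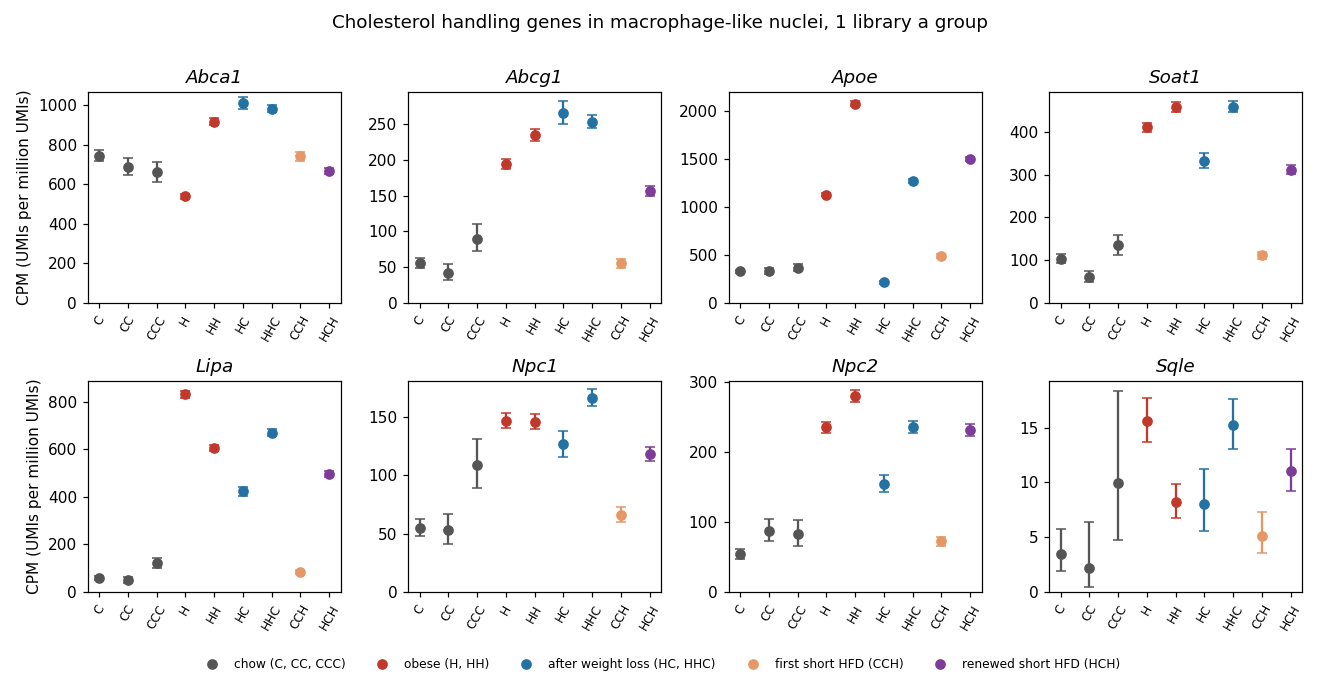
Level of each of the 8 genes in macrophage-like nuclei (y axis, CPM, from 0) in the 9 libraries (x axis); points are single libraries and bars 95% Poisson intervals of counting error. Lipa lay between 48.6 and 121 CPM in chow libraries and between 423 and 831 CPM in obese and WL libraries, while Abca1 overlapped between chow and obese libraries and was highest in the 2 WL libraries.

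Among the efflux genes, Abca1 (chr4:53030787-53159895, build GRCm38), the transporter that lipidates apolipoprotein A-I, stood at 745, 688 and 662 CPM in C, CC and CCC, 539 and 917 in H and HH, 1009.7 and 984 in HC and HHC, 742 in CCH and 669 in HCH. The chow libraries lay between the 2 obese libraries, H being the lowest of all 9, and both WL libraries were above every other. By edgeR the log2 fold change was -0.09 (SE 0.25, adjusted p = 0.808) in obesity and 0.50 (SE 0.25, adjusted p = 0.275) after WL. The direction in obesity rested on single libraries, with -0.50 without HH and 0.27 without H. Against its chow partner of the same age and label set, Abca1 was 1.47-fold in HC (log2 ratio 0.55, 0.45 to 0.66) and 1.49-fold in HHC (log2 ratio 0.57, 0.46 to 0.69).

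Abcg1 (chr17:31057675-31117988), which exports cholesterol to high-density lipoprotein, stood at 55.3, 42.1 and 89.8 CPM in C, CC and CCC, 195 and 234 in H and HH, 266 and 253 in HC and HHC, 55.2 in CCH and 157 in HCH. No obese or WL library overlapped the chow libraries, and both WL libraries were above both obese ones. The log2 fold change was 1.67 (SE 0.26, adjusted p = 0.00295) in obesity and 2.08 (SE 0.27, adjusted p = 0.00298) after WL by edgeR. HC exceeded CC 6.32-fold (log2 ratio 2.66, 2.28 to 3.07) and HHC exceeded CCC 2.82-fold (log2 ratio 1.50, 1.19 to 1.82). After 4 weeks of HFD, CCH was at the level of C, and HCH was 2.84-fold higher than CCH (log2 ratio 1.51, 1.34 to 1.68).

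Apoe (chr7:19696109-19699188) stood at 329.6, 328 and 364 CPM in C, CC and CCC, 1126 and 2074 in H and HH, 213 and 1274 in HC and HHC, 487 in CCH and 1500.1 in HCH. HC was the lowest of the 9 libraries, and the other libraries with past or present obesity were above every chow library. Apoe rose in obesity with a log2 fold change of 2.09 (SE 0.56, adjusted p = 0.0196) by edgeR, a call that was lost without C, CC, CCC or HH in turn (adjusted p = 0.0562 to 0.105) and with the label set as a covariate (0.136). After WL it was 1.04 (SE 0.55, adjusted p = 0.3), a value that was -0.59 without HHC and 1.84 without HC. HC held 0.649 of the level of CC (log2 ratio -0.62, -0.79 to -0.46) and HHC 3.50-fold the level of CCC (log2 ratio 1.81, 1.66 to 1.96).

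Apoe was higher in H, HH, HHC and HCH than in the chow libraries in all 10 classes, including T or NK-like nuclei, a class not known for apolipoprotein E. There it was 260.4, 370.1 and 362 CPM in C, CC and CCC, 1369 and 2312 in H and HH, and 208 and 1445 in HC and HHC. In H, 87.2% of macrophage-like and 85.7% of T or NK-like nuclei had an Apoe UMI, at medians of 2439 and 1256 UMIs. With nuclei thinned to 1000 UMIs, and those below that depth left out, the shares were 61.4% and 72.9%. Over the 9 libraries the T or NK-like level was 79.0% (C) to 122% (H) of the macrophage-like level. Whether the Apoe UMIs of T or NK-like nuclei came from these nuclei themselves, free RNA, doublets or misassigned nuclei was not tested. The part of free RNA in the Apoe levels was not tested either.

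Soat1 (chr1:156424525-156474331), the cholesterol-esterifying enzyme, stood at 104, 61.0 and 135 CPM in C, CC and CCC, 411 and 459 in H and HH, 333 and 459 in HC and HHC, 111 in CCH and 312 in HCH. The obese and WL libraries did not overlap the chow libraries, and CCH lay within the chow range. By edgeR the log2 fold change was 1.99 (SE 0.27, adjusted p = 0.00173) in obesity and 1.97 (SE 0.27, adjusted p = 0.00371) after WL. Within label set S075, H was 3.96-fold (log2 ratio 1.99, 1.84 to 2.13) and HH 4.42-fold (log2 ratio 2.14, 2.002 to 2.29) above C. Within S019, HC was 5.46-fold above CC (log2 ratio 2.45, 2.13 to 2.78) and HHC 3.41-fold above CCC (log2 ratio 1.77, 1.52 to 2.03). HCH exceeded CCH 2.81-fold (log2 ratio 1.49, 1.37 to 1.61).

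Lipa (chr19:34492318-34527474), the lysosomal acid lipase, had the largest change of the 8 genes in both comparisons. Its level was 57.3, 48.6 and 121 CPM in C, CC and CCC, 831 and 605 in H and HH, 423 and 669.9 in HC and HHC, 83.7 in CCH and 498 in HCH. Every obese and WL library was above every chow library, and CCH lay within the chow range. By edgeR the log2 fold change was 3.15 (SE 0.35, adjusted p = 0.000874) in obesity and 2.87 (SE 0.35, adjusted p = 0.00248) after WL. H exceeded C 14.5-fold (log2 ratio 3.86, 3.67 to 4.05) and HH exceeded C 10.6-fold (log2 ratio 3.40, 3.22 to 3.60). The ratio was 8.70 for HC with CC (log2 ratio 3.12, 2.77 to 3.50), 5.55 for HHC with CCC (log2 ratio 2.47, 2.21 to 2.74) and 5.94 for HCH with CCH (log2 ratio 2.57, 2.44 to 2.70). Each of these pairs was several-fold apart and shared a label set, while HH and C also differed in age.

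The share of macrophage-like nuclei with at least 1 Lipa UMI went from 10.2% in C, 12.96% in CC and 17.5% in CCC to 74.8% in H and 60.8% in HH. It was 57.8% in HC and 74.95% in HHC. At 1000 UMIs per nucleus, again without nuclei below that depth, the shares were 4.83% in C, 9.05% in CCC, 50.3% in H and 29.7% in HC. T or NK-like nuclei had a share of 2.48% in C, 0% in CCC, 32.8% in H and 6.48% in HC at the same depth. For CCC this was 0 of 68 nuclei before thinning, with an exact 95% interval that reached up to 5.28%. Before thinning the shares in C were 10.2% (exact 95% interval 8.75 to 11.7) in macrophage-like and 2.68% (3 of 112 nuclei, 0.556 to 7.63) in T or NK-like nuclei, at medians of 2175 and 1310 UMIs. The macrophage-like share was the higher one in each of these 4 libraries, and the T or NK-like share was itself higher in H than in C. For Soat1 the thinned shares were 8.43% in C and 30.5% in H, with 7.69% and 9.60% in T or NK-like nuclei. In C the macrophage-like share of nuclei with Soat1 was thus close to the T or NK-like share, and in H it was above. The source of the UMIs in T or NK-like nuclei was not tested.

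Of the 2 lysosomal cholesterol carriers, Npc2 (chr12:84754562-84773152), the soluble one, stood at 53.8, 87.9 and 82.8 CPM in C, CC and CCC, 236 and 280.5 in H and HH, 155 and 236 in HC and HHC, 72.3 in CCH and 232 in HCH. Obese and WL libraries were all above the chow libraries. Npc2 rose in obesity by 1.66 (SE 0.24, adjusted p = 0.00214) and after WL by 1.37 (SE 0.24, adjusted p = 0.0118) on the log2 scale (edgeR). The call after WL was lost without HHC, with an adjusted p of 0.0751. Npc2 too was as high in T or NK-like nuclei of the same libraries, with 235 CPM in H and 324 CPM in HH, so its class of origin cannot be told from these levels.

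Npc1 (chromosome 18, minus strand), the membrane-bound carrier, stood at 54.8, 53.0 and 109 CPM in C, CC and CCC, 147 and 146 in H and HH, 127 and 167 in HC and HHC, 66.3 in CCH and 119 in HCH. Obese and WL libraries were above all 3 chow libraries, of which CCC was the highest. The log2 fold change was 0.92 (SE 0.27, adjusted p = 0.0288) in obesity and 1.04 (SE 0.27, adjusted p = 0.0541) after WL by edgeR, so only the first passed the threshold. In the paired fit Npc1 was higher after WL by 0.93 (SE 0.24, adjusted p = 0.0239) on the log2 scale (edgeR), where 1601 of 12759 genes changed. The call in obesity was lost without C, CC, H or HH in turn, with an adjusted p of up to 0.109. Sqle (chr15:59315077-59331192) had few UMIs, 3 (CC) to 239 (H), in macrophage-like nuclei of a library. Its level was 3.43, 2.18 and 9.98 CPM in C, CC and CCC, 15.6 and 8.22 in H and HH, 8.01 and 15.3 in HC and HHC, 5.15 in CCH and 11.1 in HCH, its groups overlapped, and its log2 fold changes of 1.23 (SE 0.55, adjusted p = 0.111) and 1.32 (SE 0.56, adjusted p = 0.196) by edgeR did not pass the threshold.

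Macrophage-like nuclei were not of one kind. By markers, LAM-like nuclei (lipid-associated macrophages: Trem2, Gpnmb, Atp6v0d2, Mmp12, Spp1, Itgax, Fabp5 and Lgals3) and PVM-like nuclei (resident perivascular macrophages: Mrc1, Cd163, F13a1, Lyve1, Folr2, Cbr2, Pf4 and Stab1) were set apart. LAM-like nuclei made up 1.31%, 1.39% and 5.24% of macrophage-like nuclei in C, CC and CCC, 55.0% and 44.1% in H and HH, 53.3% and 61.3% in HC and HHC, 2.20% in CCH and 30.8% in HCH. The part of these shares in the class levels given above was not tested.

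Compared within the same library, LAM-like nuclei had more Lipa, Abcg1, Soat1, Sqle, Npc1 and Npc2 and less Abca1 and Apoe than PVM-like nuclei, where 37.5% of 12061 genes differed. The fit took 8 libraries with the library as a block and left out CC, which had 6 LAM-like nuclei. Lipa was 362, 622, 999, 800.0, 567, 832, 593 and 792 CPM in LAM-like nuclei of C, CCC, H, HH, HC, HHC, CCH and HCH. In PVM-like nuclei of these libraries it was 45.8, 73.9, 485, 319.6, 166, 365, 63.0 and 247 CPM. LAM-like nuclei were higher in 8 of 8 libraries, and the PVM-like levels of chow libraries and CCH were the lowest. The log2 difference was 1.77 (SE 0.19, adjusted p = 2.93e-07) for Lipa, 1.69 (SE 0.16, adjusted p = 3.55e-08) for Abcg1 and 1.50 (SE 0.13, adjusted p = 1.01e-08) for Soat1 by edgeR.

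Soat1 in LAM-like nuclei ranged only from 426 CPM (HC) to 607 CPM (HH) over the 8 libraries, and was 453 in C, 525 in CCC and 495 in CCH. In PVM-like nuclei Soat1 was 87.8, 55.8 and 96.8 CPM in C, CC and CCC and 232 and 270.3 CPM in H and HH. The LAM-like nuclei of C and CCC were few (22 and 23), and their Soat1 level was below both obese libraries in C and between them in CCC. Differences between LAM-like and PVM-like nuclei were smaller for Sqle with 0.78 (SE 0.20, adjusted p = 0.00392), Npc1 with 0.50 (SE 0.10, adjusted p = 0.000361) and Npc2 with 0.39 (SE 0.09, adjusted p = 0.00183) on the log2 scale (edgeR). Abca1, at -0.43 (SE 0.15, adjusted p = 0.0345) by edgeR, was lower in LAM-like nuclei of 6 of 8 libraries and higher in C and CCC, where it was 1449.8 against 759.7 and 898 against 661 CPM. The call for Abca1 was lost without H, HH, HC, HHC, CCH or HCH in turn, with adjusted p of 0.0516 to 0.138, and under DESeq2 with 0.146. Of 15 alternatives 6 kept the call for Abca1. For Apoe the difference was -0.52 (SE 0.15, adjusted p = 0.00872) by edgeR, lower in 6 of 8 libraries. Of 15 alternatives 12 kept the call for Apoe, and the fit without H was among those that lost it (adjusted p = 0.0515). Npc1 was higher in LAM-like nuclei of 7 of 8 libraries, C being the exception, and Sqle had no UMI in LAM-like nuclei of C and CCC. The call for Sqle held under 14 of 15 alternatives.

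**Figure D2:**
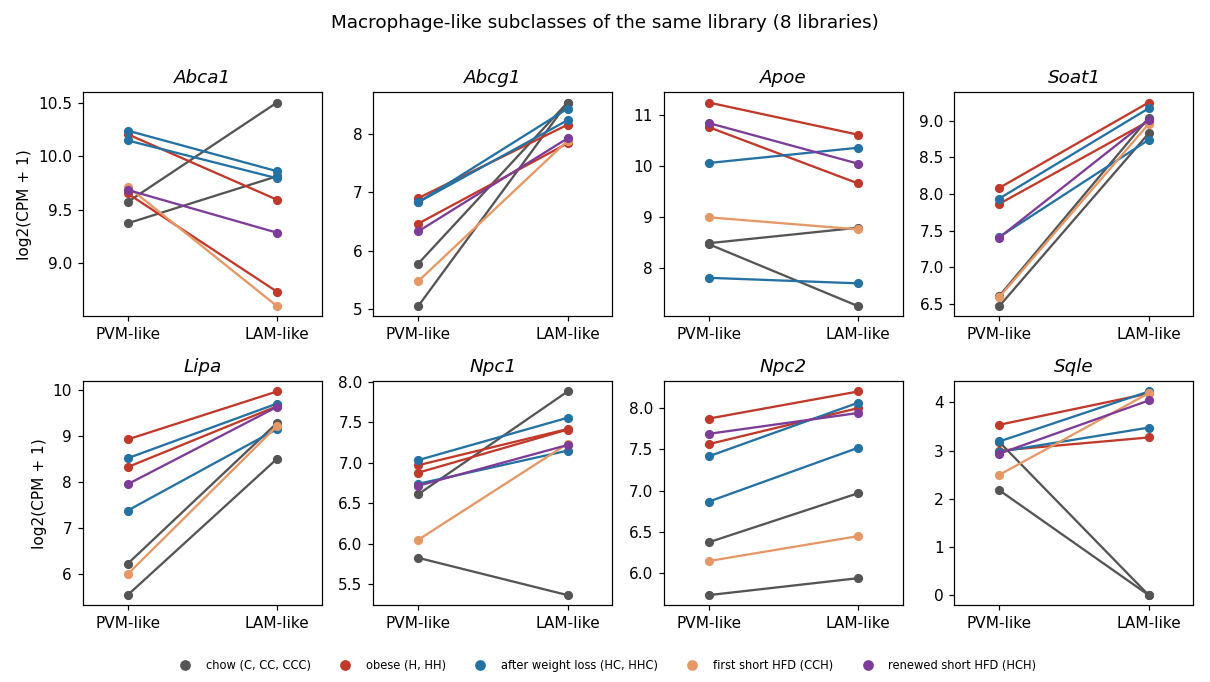
Level of each gene (y axis, log2(CPM + 1)) in PVM-like and LAM-like nuclei, with a line for each of 8 libraries coloured by diet. The lines of Abcg1, Soat1, Lipa and Npc2 rise in all 8 libraries, and those of Abca1 rise only in the 2 chow libraries.

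With PVM-like nuclei taken alone, an alternative chosen after the data were seen, 5 of the 8 genes rose in obesity, where 2828 of 12947 genes changed, and 3 after WL, where 149 of 12947 did. The log2 fold changes in obesity were 2.73 (SE 0.32, adjusted p = 0.00243) for Lipa, 2.43 (SE 0.46, adjusted p = 0.0095) for Apoe, 1.49 (SE 0.24, adjusted p = 0.00518) for Soat1, 1.34 (SE 0.26, adjusted p = 0.00994) for Npc2 and 1.28 (SE 0.26, adjusted p = 0.0113) for Abcg1 by edgeR. After WL they were 2.26 (SE 0.32, adjusted p = 0.0158) for Lipa, 1.55 (SE 0.26, adjusted p = 0.0272) for Abcg1 and 1.35 (SE 0.24, adjusted p = 0.033) for Soat1. Npc1 in obesity was 0.68 (SE 0.24, adjusted p = 0.0728) and Npc2 after WL 0.92 (SE 0.26, adjusted p = 0.149), and neither passed the threshold. Free RNA was not removed from these counts, and its part in the PVM-like values was not tested.

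Over the 10 classes the order of levels differed between the genes. Abca1 was highest in lymphatic endothelial-like nuclei (median 1026 CPM over libraries, 779.6 to 1202), followed by adipocyte-like (835, 655 to 926) and macrophage-like nuclei (742, 539 to 1009.7). Abcg1 (157 CPM), Soat1 (312), Npc1 (119), Npc2 (155) and Lipa (423) had their highest median in macrophage-like nuclei. For Npc2 this changed to T or NK-like nuclei under the stricter gate (169.9 against 156 CPM) and to dendritic-like nuclei with classes from clusters (182 against 159 CPM). Within a library, macrophage-like nuclei exceeded the second class in 6 of 9 libraries for Npc1 (mesothelial-like) and for Npc2 (T or NK-like). For Abcg1 (B-like) they did so in 6 of 8. The medians of Soat1 and Lipa in macrophage-like nuclei stood far above the second class, which was epithelial-like for Soat1 (98.2 CPM) and B-like for Lipa (147 CPM). Sqle was highest in epithelial-like nuclei (25.3 CPM against 10.3 CPM in the second class), the epithelium of the epididymis next to the fat pad. Apoe had its highest median in B-like nuclei (754 CPM over 8 libraries), followed by endothelial-like nuclei (691 CPM over 9 libraries). Within a library, B-like nuclei exceeded endothelial-like nuclei in only 2 of 8, with a mean log2 difference of -0.42. Under some other ways to assign classes Apoe was highest in T or NK-like or endothelial-like nuclei.

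Of 72 pairs of neighbours in these orders, 7 were told apart by an exact 2-sided sign-flip permutation test over libraries (adjusted p = 0.0402 each, raw p = 0.00391, the smallest that 9 libraries allow). With the stricter gate 0 pairs were told apart and with classes from clusters 0, against 13 without upper limits on genes and UMIs. The calls below thus hold for these classes and this gate. Since the test has a smallest possible p, several pairs must reach it together for any to pass after adjustment. A count of 0 therefore does not show how many pairs changed. Soat1 was higher in macrophage-like than in epithelial-like nuclei in 9 of 9 libraries, with a mean log2 difference of 1.27 (SD 0.50). Abca1 was higher in macrophage-like than in progenitor-like nuclei (0.75, SD 0.31) and in progenitor-like than in endothelial-like nuclei (0.41, SD 0.14), in 9 of 9 libraries each. Further pairs were Abcg1 in adipocyte-like over progenitor-like nuclei (1.34, SD 0.69), Npc1 in mesothelial-like over progenitor-like (0.47, SD 0.31), Npc2 in endothelial-like over lymphatic endothelial-like (0.62, SD 0.28) and Apoe in lymphatic endothelial-like over progenitor-like (0.37, SD 0.24). The remaining pairs did not pass this test. Pairs with a class measured in 8 libraries could not go below p = 0.00781 in this exact test. Lipa in macrophage-like against B-like nuclei was such a pair, higher in 8 of 8 libraries by a mean of 1.46 (SD 0.40, raw p = 0.00781, adjusted p = 0.0625 by the exact permutation test). Abca1 in lymphatic endothelial-like against adipocyte-like nuclei was higher in 8 of 9 libraries by 0.35 (SD 0.26, adjusted p = 0.0625 by the same exact test).

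**Figure D3:**
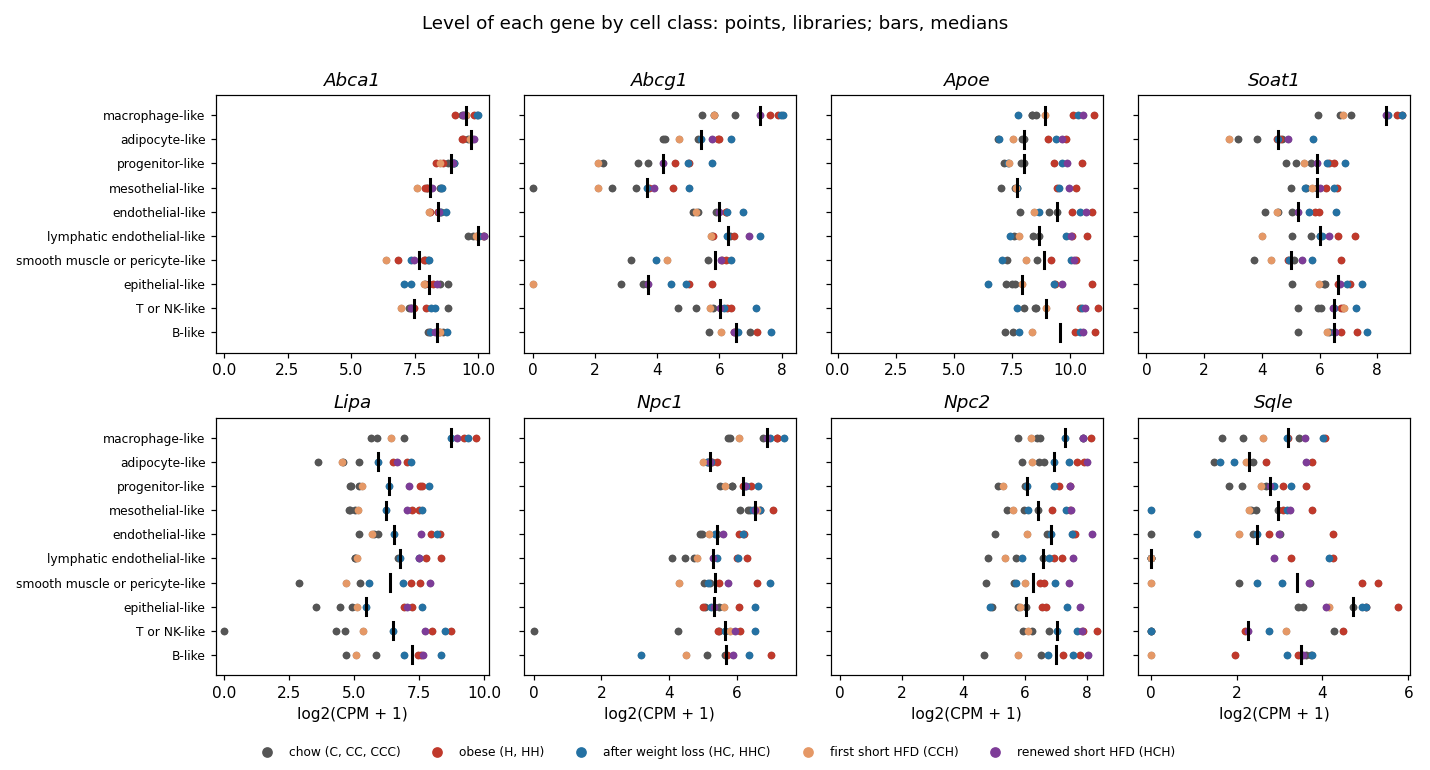
Level of each gene (x axis, log2(CPM + 1)) in 10 cell classes (rows); points are libraries coloured by diet and bars the medians. Abca1 is high in lymphatic endothelial-like, adipocyte-like and macrophage-like nuclei, and Lipa spreads from chow to obese libraries in every class.

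UMIs of myeloid genes were found in every class. Whether they came from the nuclei themselves, free RNA, doublets or misassigned nuclei was not tested. The 8 myeloid genes named above stood in adipocyte-like nuclei at a median of 6.37% (C) to 43.1% (HCH) of their macrophage-like level, and in T or NK-like nuclei at 9.30% (CCC) to 106% (H). Single genes varied more, from 0% to 120% of that level in T or NK-like nuclei of C. Abca1 in adipocyte-like nuclei was 114% of its macrophage-like level and above every myeloid gene in 9 of 9 libraries. Npc2 (97.8%) and Apoe (52.4%) were also above every myeloid gene there in 9 of 9 libraries. By contrast, Soat1 in adipocyte-like nuclei was 7.69%, with 3 of 9 libraries above the median of the myeloid genes, and Lipa 19.9%, with 5 of 9. Of these, 1 library for Soat1 and 4 for Lipa were above every myeloid gene.

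In adipocyte-like nuclei 2 of the 8 genes rose in obesity, Lipa and Npc2, where 12.6% of 14310 genes changed. Lipa was 11.4, 23.1 and 35.8 CPM in C, CC and CCC, 129 and 89.6 in H and HH, 59.9 and 146 in HC and HHC, 22.4 in CCH and 98.5 in HCH. Obese and WL libraries were above the chow libraries, and the log2 fold change was 2.12 (SE 0.44, adjusted p = 0.0252) in obesity by edgeR. Npc2 was 59.1, 86.0 and 96.6 CPM in C, CC and CCC, 204 and 238 in H and HH, 121 and 170.4 in HC and HHC, 73.6 in CCH and 256 in HCH, with chow libraries below all obese and WL libraries and a log2 fold change of 1.33 (SE 0.22, adjusted p = 0.0149) in obesity by edgeR. Over the same comparison 7 of the 8 myeloid genes rose with a median log2 fold change of 3.06; their part was not tested. Without CC, H or HH in turn no member passed. The log2 fold changes of members that did not pass were 1.22 for Abcg1, 1.69 for Apoe, 0.48 for Soat1 and 1.27 for Sqle in adipocyte-like nuclei.

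Abca1 in adipocyte-like nuclei was 869.5, 783 and 835 CPM in C, CC and CCC, 673 and 655 in H and HH, 839 and 837 in HC and HHC, 824 in CCH and 926 in HCH. The 2 obese libraries were the lowest of the 9, yet the log2 fold change of -0.48 (SE 0.25, adjusted p = 0.213) by edgeR did not pass the threshold. Npc1 was nearly level, between 31.5 CPM (CCH) and 42.1 CPM (HH), with 0.02 (SE 0.24, adjusted p = 0.959) on the log2 scale. After WL 0 of the 8 genes and 0% of all genes passed in adipocyte-like nuclei by edgeR, although 1536 genes had an unadjusted p under 0.05 and DESeq2 called 262. In the paired fit 675 of 13548 genes passed there, among them Lipa with 1.83 (SE 0.23, adjusted p = 0.00904) and Abcg1 with 1.26 (SE 0.22, adjusted p = 0.0256) by edgeR. The log2 fold changes of the members were 0.06 for Abca1, 1.37 for Abcg1, 0.94 for Apoe, 1.37 for Soat1, 2.19 for Lipa, 0.07 for Npc1, 0.91 for Npc2 and -0.34 for Sqle (lowest adjusted p = 0.228 by edgeR). Lipa was 2.59-fold in HC against CC (log2 ratio 1.37, 1.04 to 1.72) and 4.08-fold in HHC against CCC (log2 ratio 2.03, 1.72 to 2.34). The 8 myeloid genes summed to 177 CPM in HC, 106 in CC, 763 in HHC and 156 in CCC, and their median log2 fold change after WL was 1.73, with 0 of 8 past the threshold; their part was not tested.

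Progenitor-like nuclei had 5 of the 8 genes changed in obesity, where 17.4% of 15073 genes changed. Abca1 fell, from 451, 533 and 492 CPM in C, CC and CCC to 319.9 and 395 in H and HH, with a log2 fold change of -0.67 (SE 0.19, adjusted p = 0.0397) by edgeR. The call was lost without CC, CCC, H or HH in turn, with adjusted p of 0.075 to 0.312, and with the label set as a covariate (0.102). In CCH it was 357 CPM, also below the chow libraries, and in HC and HHC 512 and 535 CPM, above or within their range. In HCH it was 522 CPM, within the chow range. Here Abca1 moved against the myeloid genes, of which 8 of 8 rose with a median log2 fold change of 3.94. Lipa with 2.42 (SE 0.34, adjusted p = 0.00449), Apoe with 2.11 (SE 0.55, adjusted p = 0.0293), Abcg1 with 1.61 (SE 0.41, adjusted p = 0.0277) and Npc2 with 1.37 (SE 0.31, adjusted p = 0.0183) rose (edgeR), each by less than the myeloid median; the part of free RNA was not tested. Of these, Lipa alone kept its call with each library left out in turn, and without HH only Lipa passed. Apoe was lost without C, CC, CCC or HH, Abcg1 without C, CC, H or HH and Npc2 without H or HH, and with the label set as a covariate Apoe no longer passed (adjusted p = 0.0954, edgeR). Members that did not pass had log2 fold changes of 0.89 for Soat1, 0.36 for Npc1 and 0.97 for Sqle.

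After WL, where 1.40% of genes changed in progenitor-like nuclei, Abcg1 and Lipa were higher than in chow libraries. Abcg1 was 3.83, 9.54 and 12.1 CPM in C, CC and CCC, 22.6 and 31.3 in H and HH, 30.9 and 52.7 in HC and HHC, 3.25 in CCH and 17.1 in HCH. CCH was the lowest, and HC and HHC were above all chow libraries, with a log2 fold change of 2.38 (SE 0.41, adjusted p = 0.0238) by edgeR. For Lipa it was 2.27 (SE 0.34, adjusted p = 0.0139). The other members, with 0.03 for Abca1, 1.08 for Apoe, 1.23 for Soat1, 0.67 for Npc1, 0.77 for Npc2 and 0.79 for Sqle, did not pass. Of the myeloid genes, 3 of 8 rose after WL, with a median of 2.19. Over the 9 libraries Abcg1 in progenitor-like nuclei was at a median of 11.6% of its macrophage-like level. It was above the median of the myeloid genes in 2 of 9 libraries and above every myeloid gene in 0. For Lipa the median was 30.6%, with 6 of 9 libraries above the myeloid median and 4 above every myeloid gene. The part of free RNA in these 2 genes was not tested. Both calls were lost without C, CC, CCC or HHC in turn, with adjusted p of 0.0501 to 0.129, and with the label set as a covariate. In the paired fit, where 752 of 12415 genes changed, Abcg1 with 1.89 (SE 0.29, adjusted p = 0.00237), Lipa with 2.13 (SE 0.26, adjusted p = 0.00066) and also Soat1 with 1.56 (SE 0.21, adjusted p = 0.0012) passed by edgeR.

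In endothelial-like nuclei Lipa alone of 7 tested members rose in obesity, by 2.45 (SE 0.41, adjusted p = 0.012) on the log2 scale (edgeR), where 4.95% of genes changed. It was 53.7, 35.2 and 58.8 CPM in C, CC and CCC, 318 and 249.7 in H and HH, 92.9 and 294 in HC and HHC, 50.9 in CCH and 188 in HCH, with chow libraries and CCH below the rest, and the call was lost without H (adjusted p = 0.0972) or HH (0.0673). After WL none of the 7 passed, where 0.131% of genes did and 705 genes had an unadjusted p under 0.05; DESeq2 called 1 of the 7, Lipa, and so did the paired fit, with 1.89 (SE 0.29, adjusted p = 0.0231) by edgeR, where 136 of 8975 genes changed. The endothelial-like log2 fold changes that did not pass were -0.25 for Abca1, 0.71 for Abcg1, 1.58 for Apoe, 1.15 for Soat1, 1.00 for Npc1 and 1.17 for Npc2 in obesity and 0.16 for Abca1, 1.09 for Abcg1, 0.84 for Apoe, 1.46 for Soat1, 1.93 for Lipa, 0.73 for Npc1 and 0.87 for Npc2 after WL. Mesothelial-like nuclei had Lipa, with 2.47 (SE 0.36, adjusted p = 0.00249), and Apoe, with 2.31 (SE 0.39, adjusted p = 0.00555), higher in obesity by edgeR, as 2 of 6 tested members against 6.18% of genes. After WL Lipa passed there with 2.29 (SE 0.37, adjusted p = 0.0115) by edgeR, against 0.547% of genes. That call was lost without C (adjusted p = 0.111) or HHC (0.232) and with the label set as a covariate (0.121). The call of Apoe in obesity was lost without HH (0.114) and with the label set as a covariate (0.0733). The mesothelial-like values that did not pass were -0.34 for Abca1, 0.74 for Soat1, 0.57 for Npc1 and 1.30 for Npc2 in obesity and 0.35 for Abca1, 1.38 for Apoe, 0.53 for Soat1, 0.34 for Npc1 and 1.04 for Npc2 after WL. In both classes 8 of 8 myeloid genes rose in obesity, with median log2 fold changes of 4.05 and 4.17, above those of Lipa. After WL 3 of 8 rose in mesothelial-like nuclei with a median of 2.45, and 0 of 8 passed in endothelial-like nuclei with a median of 2.11.

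**Figure D4:**
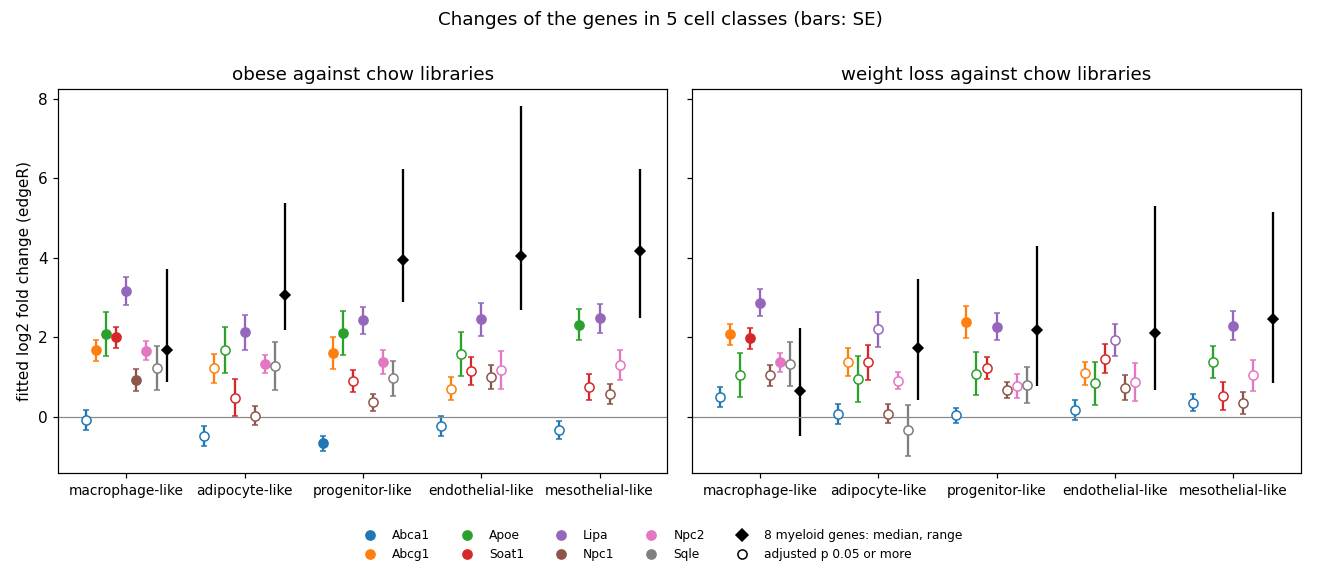
Fitted log2 fold changes by edgeR (y axis) of the members in 5 cell classes (x axis), obese (left) or WL libraries (right) against chow; bars are SE, filled points passed an adjusted p of 0.05, and members with too few UMIs are not drawn. Black diamonds and lines give the median and range of 8 myeloid genes: these lie above most members outside macrophage-like nuclei, and Abca1 lies at or below 0 in obesity in each class.

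Other cholesterol genes were taken from lists of the pathway, whose counts in obesity stand against the 36.2% of all genes that changed in macrophage-like nuclei. In macrophage-like nuclei most synthesis genes did not pass in obesity, and Ebp (log2 fold change 1.75), Fdps (1.52) and Msmo1 (1.08) were among those that rose. Of 8 sensing and regulatory genes, the LXR gene Nr1h3 rose (0.80) and its partner Rxra fell (-2.25). Most receptors did not pass either, whereas Cd36 (1.57) and Lrp1 (1.08) rose, and so did the phospholipid transfer protein Pltp (0.89), 1 of 6 efflux genes tested.

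Among 14 sterol transfer and binding genes, Tmem97 (1.73), Lamp1 (1.42) and Gramd1b (0.92) rose, and Osbpl5 (-1.87), Osbpl2 (-0.86) and Gramd1a (-0.76) fell, again against 36.2% of all genes. Nceh1, a neutral cholesterol ester hydrolase, rose by 1.93 (adjusted p = 0.001, edgeR). Lipe (-3.17), Ces1d (-3.29) and Cyp7b1 (-2.09) fell, the first 2 being abundant in adipocytes. The adipocyte genes Cfd, Retn and Car3 summed to 557, 803 and 2111 CPM in macrophage-like nuclei of CCC, C and CC and to 53.6 and 152 CPM in H and HH; their part in these falls was not tested.

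After WL, 7.49% of all genes changed in macrophage-like nuclei. Nceh1 (2.24), Lrp1 (1.59), Scarb1 (1.37), Cd36 (1.23), Gramd1b (1.29) and Lamp1 (1.14) were higher there than in chow libraries. Most synthesis genes did not pass after WL, and those that were higher included Fdps (1.83), Cyp51 (1.50) and Msmo1 (1.32). Within libraries, LAM-like nuclei exceeded PVM-like nuclei in Nceh1 (1.65), Cd36 (1.47), Nr1h3 (1.33), Lrp1 (1.30) and, among synthesis genes, most of which did not pass, in Hmgcs1 (1.04), Msmo1 (0.82) and Fdft1 (0.79). The oxysterol-forming Cyp27a1 (-1.69), Rxra (-0.98), Mylip (-0.43) and Arl4c (-0.72) were lower there. Of the 14 sterol transfer and binding genes, Osbpl2 (-0.69), Scarb2 (-0.54), Gramd1a (-0.45) and Osbpl1a (-0.37) were lower and Gramd1b (1.04) was higher, where 37.5% of all genes differed.

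In adipocyte-like nuclei most synthesis genes did not pass in obesity either. Hmgcs1 (1.69), Ebp (1.58) and Nsdhl (1.26) rose, together with Insig1 of the sensing and regulatory genes (3.11, adjusted p = 0.00312, edgeR). The scavenger receptor Olr1 (5.45) and Lamp1 (1.18) rose and Gramd1b (-1.53) fell. The number of genes called in this comparison was 1810, against 154 without CC and 3491 without C. Without H or HH, which leaves 1 obese library, nearly all calls were lost. The calls of these genes thus depend on the libraries in the fit, and the cause was not tested.

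Over the 88 sums of a class in a library, the genes most like each member by Pearson's r of log2(CPM + 1) were sought among 16318 genes. Lipa was closest to Ctsb (0.89), Psap (0.89) and the myeloid gene Lyz2 (0.87), and Npc2 to Ftl1 (0.86), Ctsl (0.84) and Lyz2 (0.83). Apoe was closest to Cst3 (0.91), H2-D1 and Atp6v0c (0.90 each), and Soat1 to Nceh1 (0.74), the macrophage marker Cd84 (0.71) and Abhd12 (0.70). Abcg1 was closest to Cybb (0.72), Gusb (0.72) and Gng2 (0.71), and Npc1 to Sh3gl1 (0.76), Csf1r (0.73) and Flvcr1 (0.73). Abca1 was closest to Hsf3 (0.77), Osbpl9 (0.76) and Hivep3 (0.73), and Sqle to Lsm7 (0.60), Rnaset2b (0.59) and Fam133b (0.58). The sums share libraries, depth and free RNA, and these values are a description.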

How the data were processed

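The deposited matrices hold raw UMI counts per gene and barcode, which the authors made with Cell Ranger 6.1.2 (mm10, per the submitters' processing notes, which also list Seurat 4.1.0). Intronic reads were counted, and replicates were not pooled beyond the 5 mice of each library. Nuclei with 500 to 3000 genes and at most 40000 UMIs were kept, and doublets were removed with Scrublet (scanpy 1.11.5, Python 3.11.15). The expected rate of 0.8% per 1000 nuclei was used in the 4 libraries where its automatic threshold marked under 0.5%. These were CC, CCC, HC and HHC, all libraries of label set S019, so the doublet rule differed between the label sets. The class totals behind CPM include no mitochondrial gene and no Malat1, whereas library totals and medians per nucleus count all genes. A nucleus took a class when its UMIs of that class's markers, less the level free RNA gives, reached 3 from 2 markers and 2-fold the next class. This rule was chosen after marker counts had been seen, and the members and lists were chosen with earlier results of these data known. One marker is not analysed here.

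UMIs were summed per library and class and tested with edgeR 4.0.16 (R 4.3.3; quasi-likelihood test, TMM factors, filterByExpr, Benjamini-Hochberg over all genes tested), which gives all adjusted p-values here other than those of class orders and those named as DESeq2. No label ties libraries of a diet state as replicates, so p-values measure the spread between libraries that differ in age and diet length. The scripts were tested on simulated data. Shares carry exact Clopper-Pearson and CPM exact Poisson 95% intervals, and class orders an exact sign-flip permutation test (scipy 1.17.1) on log2(CPM + 1), for classes with 20 nuclei in 6 libraries. PCR copies are collapsed by UMIs, and these intervals cover counting error only. By rule all tested members are named in every comparison and of other lists genes past the threshold (genes that did not pass are not named), of which some are not reported here, so that the synthesis and receptor lists are given without counts. Gene identifiers matched GENCODE vM21 (GRCm38) for 32158 of 32285 genes. Alternatives were RLE size factors, no filter on low counts, DESeq2 1.42.0, the label set (the prefix of the library names) as a covariate, each library left out, a stricter gate (5 UMIs, 3 markers, 3-fold), no doublet removal, no upper limits, classes from Leiden clusters (leidenalg 0.10.2, igraph 0.11.9) and, added after seeing the data, PVM-like nuclei alone and the paired fit of HC, CC, HHC and CCC (edgeR, pair as a block).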

Additional observations from a re-analysis of the deposited data

How the results depend on the processing

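The labels number 1 library in each diet group, so that replicate numbers pair nothing. WL and chow libraries of the same age and label set (HC with CC and HHC with CCC) were fitted with the pair as a block, an alternative chosen after the data were seen that leaves 1 residual degree of freedom and borrows the spread across genes. This paired fit called 5 of the members in macrophage-like (4 in the fit over all libraries), 2 in adipocyte-like (0), 3 in progenitor-like (2), 1 in endothelial-like (0) and 1 in mesothelial-like nuclei (1, where 63 of 6806 genes changed). LAM-like and PVM-like nuclei were compared with the library as a block. In macrophage-like nuclei Lipa, Soat1 and Abcg1 passed the threshold in both comparisons, and Npc2 in obesity, under every alternative run. With the label set as a covariate Apoe and Npc1 no longer passed in obesity (adjusted p = 0.136 and 0.0504, edgeR). Apoe in obesity was also lost without C, CC, CCC or HH. Npc1 after WL passed under 8 alternatives. Abca1 in obesity had log2 fold changes of 0.00076 without a filter on low counts, 0.24 with cluster classes and 0.31 in PVM-like nuclei alone, and -0.50 to 0.27 with single libraries left out; its sign is thus not fixed, and the cause was not tested.

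Without the filter on low counts the number of members called was 7 after WL in macrophage-like nuclei (2590 of 24727 genes), 4 (obesity, 3247 of 23893 genes) and 2 (WL, 545) in adipocyte-like, 5 (WL, 1371 of 24165) in progenitor-like, 3 and 2 (1283 and 296 of 21254) in endothelial-like and 2 (WL, 259 of 20430) in mesothelial-like nuclei. DESeq2 called 4 and 1 (2676 and 262 of 14310 genes) in adipocyte-like and 2 and 1 (626 and 76 of 9939) in endothelial-like nuclei. With the label set as a covariate 1 was called after WL in adipocyte-like nuclei, 3 and 0 in progenitor-like, 3 (obesity) in endothelial-like and 1 and 0 in mesothelial-like nuclei. Leaving out a chow library, which keeps more than 1 library in each diet state, also changed the calls. In obesity 0 members were called in adipocyte-like nuclei without CC (154 of 13224 genes) and 3 without CCC (1829 of 13118). Endothelial-like nuclei had 2 without C (1184 of 9803), and mesothelial-like nuclei 3 without CCC (464 of 8323). After WL, progenitor-like nuclei had 0 without CCC (70 of 15050). Fits without an obese or a WL library leave 1 library in a group, and their counts are not given. Neighbours told apart in the class orders numbered 0 with the stricter gate, 0 with cluster classes and 13 without upper limits. The cause of these changes was not tested.

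Some values changed sign, among them the larger ones of Apoe. In adipocyte-like nuclei Npc1 in obesity was -0.0275 with RLE factors, -0.0414 without a filter, -0.0255 with DESeq2, -0.0898 with the label set, -0.0344 with the stricter gate, -0.0665 with doublets, -0.23 without upper limits, -0.0931 with cluster classes and -0.14 to 0.0943 with libraries left out. After WL, Abca1 there was -0.21 with cluster classes and -0.0659 to 0.18 with libraries left out, Npc1 -0.12 to 0.21 and Apoe -0.57 to 1.66. Sqle there was 0.43 without upper limits and 0.52 with cluster classes, and Apoe in macrophage-like nuclei after WL -0.59 to 1.84. Log2 ratios of Abca1 with cluster classes were 0.0638 for HCH with CCH in macrophage-like and -0.0216 for HC with CC and -0.0106 for HCH with CCH in adipocyte-like nuclei, where TMM scaling gave -0.0476. With the label set as a covariate 2948 instead of 5322 genes were called in obesity and 657 instead of 1101 after WL in macrophage-like nuclei, 740 instead of 2616 and 45 instead of 211 in progenitor-like and 119 instead of 509 and 7 instead of 45 in mesothelial-like nuclei. The same covariate gave more calls in adipocyte-like nuclei (2230 instead of 1810 and 256 instead of 0) and in endothelial-like nuclei (776 instead of 492 and 18 instead of 13). Depth limits Sqle most, with 1703 UMIs over all libraries.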
